A study of Mus musculus with 13 samples.

Results

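The mRNAs of 8 genes for the repair of DNA single-strand breaks and of blocked DNA ends were followed through the maturation of single mouse oocytes. The genes were Parp1, Xrcc1, Lig3, Polb, Aptx, Tdp1, Tdp2 and Eepd1. The list of 8 was chosen by function with earlier results of these libraries in view, and the symbols were matched as written. All 8 were present among the 18939 genes of the count tables and the 49686 features of the FPKM table. Tdp1 and Eepd1 were in addition selected on a measured value, their expression in NSN-MII against SN-MII oocytes, from which the study drew a DNA repair list that holds both. Their values in that comparison and in the interaction of type and stage that contains it are therefore given as a description with no test. So are their values between GV and MII in either type, where the same MII values enter. Which results brought the other 6 onto the list is not recorded, so the tests below are no independent support for the choice.

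RNA was sequenced from 13 single oocytes. GV oocytes, which are arrested in prophase of meiosis I, came from PMSG-primed C57BL/6 females of 3 to 4 weeks (48 h after PMSG). The oocytes for sequencing, at MII as well as at GV, carried injected mRNA for FBL–GFP, a fluorescent fibrillarin that marks the nucleolus, and for H2B-mCherry, which marks chromatin, and had been held at the GV stage with Cilostamide for 6 h. By the FBL–GFP pattern they were sorted into SN oocytes, whose chromatin surrounds the nucleolus, and NSN oocytes, whose chromatin does not. The 4 groups were SN GV (n = 3), NSN GV (n = 3), SN-MII (n = 4) and NSN-MII (n = 3), the last pair being oocytes released from Cilostamide and matured in culture to metaphase II. How many females gave these oocytes is not stated, so the spread is that between single oocytes.

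Single-strand breaks are among the most common lesions of DNA and arise from oxidation, from the excision of damaged bases and from stalled topoisomerases. PARP1 binds the break and builds chains of poly(ADP-ribose), which recruit the scaffold XRCC1. XRCC1 holds DNA polymerase beta, which fills the gap, and DNA ligase III, which seals it. Ends that cannot be joined are first cleaned: aprataxin (Aptx) removes the AMP left by an aborted ligation, TDP1 releases a topoisomerase I peptide from a 3′ end, and TDP2 releases topoisomerase II from a 5′ end. EEPD1 is an endonuclease that cuts at stalled replication forks. Fully grown oocytes transcribe little or nothing from the SN stage on, so that from then until the embryo's genome is activated the oocyte draws on mRNAs it has already stored.

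Stored mRNAs are handled through their 3′ ends, where cytoplasmic polyadenylation during maturation needs a polyadenylation hexamer (AATAAA or ATTAAA) and, before it, an element of the type TTTTAT or TTTTAAT. The last 100 bases of 1 annotated protein-coding transcript per gene (GENCODE M21, GRCm38) were searched for these letters on the transcript strand. A hexamer was found in 7 of the 8 genes, Lig3 being the exception, against 78.3% of 19876 genes searched alike. TTTTAT was found in Tdp1 and Tdp2, and TTTTAAT in none of the 8, against 17.8% of all genes for either. Tdp1 was the 1 gene of the 8 in which such an element started before the last hexamer, an order found in 12.1% of all genes. The following 30-base windows are shown for Tdp1 and Tdp2, which hold an element, and for Aptx, Eepd1 and Xrcc1. The last 3 were lower in each SN-MII than in each SN GV library, as were Tdp2 and Polb. The hexamer of Polb, 25 bases from the end, is not shown. The motif is in capitals and bases are written as in the DNA strand.
Tdp1, element 49 bases from the end: ttcttaattcacTTTTATatgtccttaaaa
Tdp1, hexamer 24 bases from the end: taaaatcaagctATTAAAtttcatagtatt
Tdp2, hexamer 26 bases from the end: aaatgtacagtaAATAAAgtgttttatttg
Tdp2, element 17 bases from the end: agtaaataaagtgTTTTATttgtagactga
Aptx, hexamer 30 bases from the end: tgactacctgaaAATAAAggacacaagatt
Eepd1, hexamer 28 bases from the end: aaagaaaagaatAATAAAcagattaatctg
Xrcc1, hexamer 21 bases from the end: acacaagagtttAATAAAggagactttgtt
In Tdp2 the 2 windows overlap, and the element follows the hexamer instead of preceding it. Which of the annotated 3′ ends the oocyte uses was not measured, so a match describes the annotation and not a site in use.

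Total counts per library lay between 7140416 and 8846287. Genes with a count numbered 11593 in the third NSN-MII library, the lowest, against 11830 to 13342 in the others. All 10 oocyte markers examined were above 1 FPKM in each group, with Gdf9 at 2300 FPKM or more in every library. Of 15 markers of cumulus and granulosa cells, Foxl2, Ptx3 and Lhcgr were at 0 in every library. The summed marker FPKM ran from 27.5 to 60.1 over the libraries and came mostly from Cyp19a1 (16.8 to 53.1 FPKM) and Nr5a2. Inha and Cyp11a1 averaged over 1 FPKM in NSN GV oocytes alone, with at most 3.14 and 3.3 FPKM in any library. The part of these cells in the results was not tested.

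Values per library are given as CPM, a gene's share of the counts of its library, as counts per 1000000 after TMM scaling over all 13 libraries. Groups were compared on the counts with the quasi-likelihood test of edgeR, and its p-values were adjusted by the Benjamini-Hochberg method over all genes tested. Genes whose adjusted p lay under 0.05 count as called, and only for these are the words rose and fell used. Log2 fold changes are MII over GV or NSN over SN, with their standard error (SE). Reverse transcription was primed on poly(A) tails, so that less mRNA and mRNA with shorter tails cannot be told apart, and CPM values are shares of a library and not molecules per oocyte.

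With maturation from GV to MII, 4 of the 6 mRNAs tested fell in SN oocytes (Xrcc1, Polb, Aptx and Tdp2). In NSN oocytes 5 of the 6 fell (Xrcc1, Polb, Aptx, Tdp2 and Parp1). Tdp1 and Eepd1 were not tested in either type. Both were lower in each NSN-MII than in each NSN GV library, and Eepd1 was also lower in each SN-MII than in each SN GV library. No gene tested was called higher in either type with all libraries. Wherever a gene fell or is named as lower here, its MII libraries did not overlap the GV libraries of that type. This was so toward lower values for 34.6% of all genes in SN and 33.2% in NSN oocytes. In SN oocytes 31.2% of the 11375 genes tested were called lower at MII and 25.1% higher, and in NSN oocytes 30.8% were called lower and 25.4% higher. Of all calls in SN oocytes 44.6% were higher at MII, and 33.4% with scaling by library totals alone, which left the same 4 genes called in SN oocytes. Of the 6 genes tested in both, 4 were called lower in both types, against 26.8% of all genes. The median log2 fold change of the 8 genes was −1.24 in SN and −1.24 in NSN oocytes, and that of all genes tested was −0.08 and −0.12. With the third NSN-MII library left out, 3 of the 6 were called in NSN oocytes (Xrcc1, Aptx and Tdp2). Leaving out NSN GV library 3 instead, the same 3 were called lower and Lig3 was called higher.

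**Figure D1:**
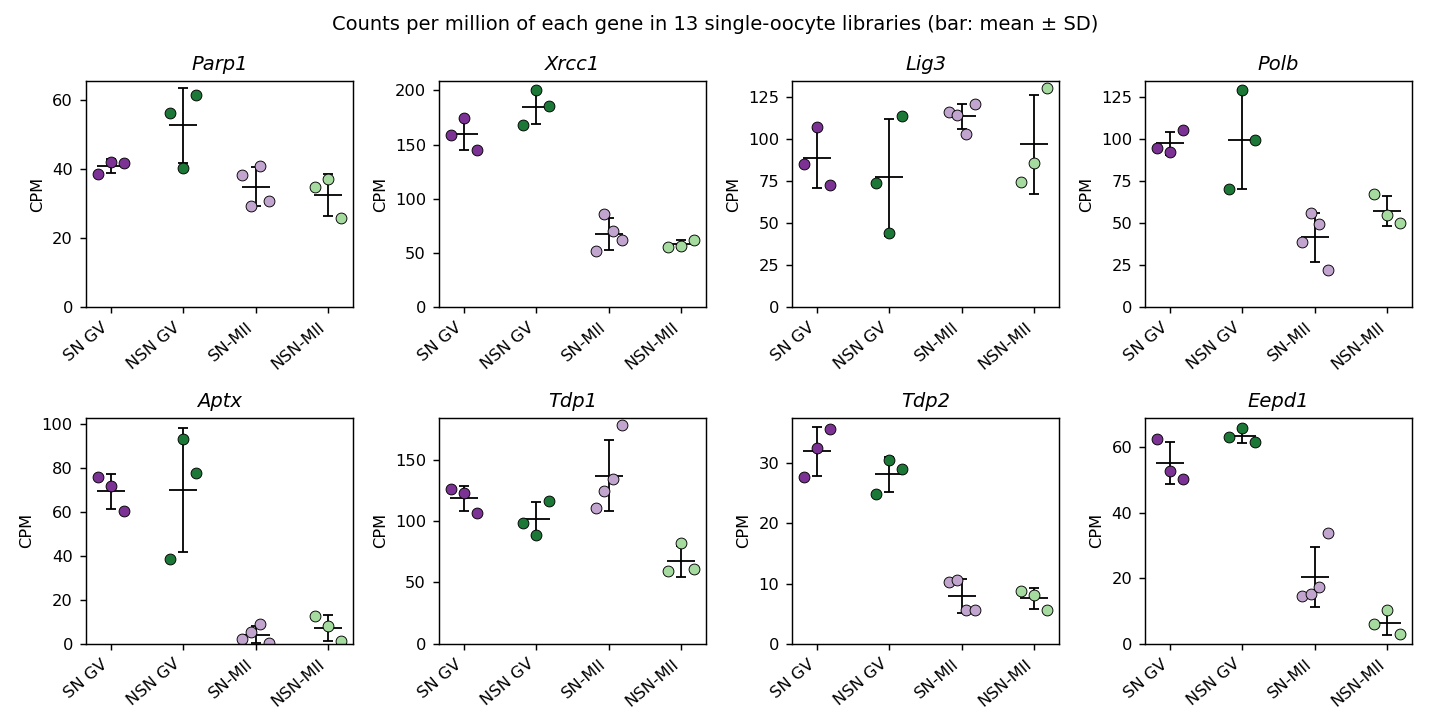
CPM (y axis, linear, from 0) of the 8 genes in each of the 13 single-oocyte libraries by group, with the group mean and SD as black bars. Aptx is at 12.5 CPM or less in each MII library, while Lig3 overlaps between all groups and Tdp1 is lower in the NSN-MII libraries than in every other library.

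Parp1, the sensor that starts the pathway, fell in NSN oocytes and was not called in SN oocytes. It had 38.4, 42.1 and 41.8 CPM in the SN GV libraries and 56.2, 40.3 and 61.2 CPM in the NSN GV libraries. At MII it had 38.4, 29.3, 40.8 and 30.8 CPM in SN-MII and 34.8, 37.1 and 25.7 CPM in NSN-MII oocytes. The SN libraries of the 2 stages overlapped, whereas each NSN-MII library lay under each NSN GV library. In SN oocytes its log2 fold change was −0.23 (SE 0.23, 95% interval −0.68 to 0.23, edgeR adjusted p = 0.420). In NSN oocytes it fell by 0.69 on the log2 scale (SE 0.25, edgeR adjusted p = 0.0267), a call lost without the first NSN GV, the third NSN GV or the third NSN-MII library (edgeR adjusted p = 0.0694, 0.0995 and 0.0784). It was also lost with no filter on low counts (0.0574), with the replicate block (0.0526), with the 2 groups fitted alone (0.0902) and with limma on FPKM (limma adjusted p from 0.0585 to 0.0962).

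Xrcc1, the scaffold, fell in both types. Its SN GV libraries had 159, 174 and 145 CPM and its NSN GV libraries 168, 201 and 186 CPM. In SN-MII oocytes it had 51.5, 86.3, 69.8 and 61.6 CPM, and in NSN-MII oocytes 55.5, 56.4 and 62.0 CPM. Every MII library was under every GV library of either type. Xrcc1 fell by 1.24 on the log2 scale in SN oocytes (SE 0.20, edgeR adjusted p = 5.32e-05) and by 1.67 in NSN oocytes (SE 0.22, edgeR adjusted p = 8.50e-06). Leaving out any 1 library kept it called in both.

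Lig3, the ligase that XRCC1 carries, was not called in either type. It had 85.3, 107 and 72.7 CPM in SN GV, 73.6, 44.2 and 113.5 CPM in NSN GV, 115.7, 114.1, 103.1 and 121 CPM in SN-MII and 74.5, 85.8 and 129.96 CPM in NSN-MII oocytes. The groups overlapped throughout, and the NSN libraries were spread more widely than the SN libraries at both stages. The log2 fold change from GV to MII was 0.36 in SN oocytes (SE 0.28, 95% interval −0.19 to 0.91) and 0.33 in NSN oocytes (SE 0.30, 95% interval −0.26 to 0.91), with edgeR adjusted p = 0.286 and 0.365. Single libraries moved the value in NSN oocytes, to 0.03 without the third NSN-MII, 0.05 without the second NSN GV and 0.72 without the third NSN GV library, where Lig3 was called higher (edgeR adjusted p = 0.0467). On the FPKM scale, which divides counts by the length and the library total, it was at 19.0 ± 2.64 FPKM in SN GV (SD, n = 3) and 18.7 ± 0.924 FPKM in SN-MII oocytes (SD, n = 4), and the log2 fold change in SN oocytes was −0.01 there. With counts scaled by library totals alone it was 0.07 in SN and 0.0067 in NSN oocytes.

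The count of Lig3 per FPKM, relative to the median gene of each library, was 1.81 to 1.93 in GV and 2.10 to 2.25 in MII libraries with no overlap, 1.17 times higher at MII. Of 4093 genes with at least 100 counts in every library, 92.6% had a lower ratio. For the other members it was 0.953 to 1.04, apart from Aptx (1.33), which had few counts at MII. Lig3 has 9 annotated protein-coding transcripts, from 793 to 5957 bases, and the part of transcript length and of scaling in the difference between CPM and FPKM was not tested. Lig3 also overlaps 1826 exonic bases of Rffl on the opposite strand, and without strand the reads of these genes cannot be told apart. Rffl itself had 128 ± 10.2 CPM in SN GV (SD, n = 3) and 80.2 ± 15.0 CPM in SN-MII oocytes (SD, n = 4). In NSN oocytes it had 137 ± 15.8 CPM at GV and 136 ± 54.7 CPM at MII (SD, n = 3). Rffl fell by 0.67 on the log2 scale in SN oocytes (edgeR adjusted p = 0.0333) and was not called in NSN oocytes. Within NSN GV, SN-MII and NSN-MII oocytes the library with the least Rffl (120.5, 60.3 and 73.7 CPM) had the most Lig3 (113.5, 121 and 129.96 CPM). Among the SN GV libraries, by contrast, 1 had the most of both (139 and 107 CPM). The sum of the 2 genes ran from 181 to 251 CPM over the libraries. How shared reads were split between them was not tested.

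Polb, the gap-filling polymerase, fell in both types. It had 94.5, 92.0 and 105 CPM in SN GV and 70.3, 129 and 99.4 CPM in NSN GV oocytes. SN-MII oocytes had 38.7, 55.6, 49.2 and 22.2 CPM and NSN-MII oocytes 66.9, 54.7 and 49.99 CPM. No MII library reached the lowest GV library, though the highest NSN-MII value was close to it. Polb fell by 1.23 on the log2 scale in SN oocytes (SE 0.28, edgeR adjusted p = 0.00133) and by 0.80 in NSN oocytes (SE 0.30, edgeR adjusted p = 0.0324). The call in NSN oocytes did not hold without the second or the third NSN GV library, or the second or the third NSN-MII library, with edgeR adjusted p from 0.0593 to 0.141, nor with the 2 groups fitted alone (0.0508) or with limma on FPKM without a filter (limma adjusted p = 0.0591).

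**Figure D2:**
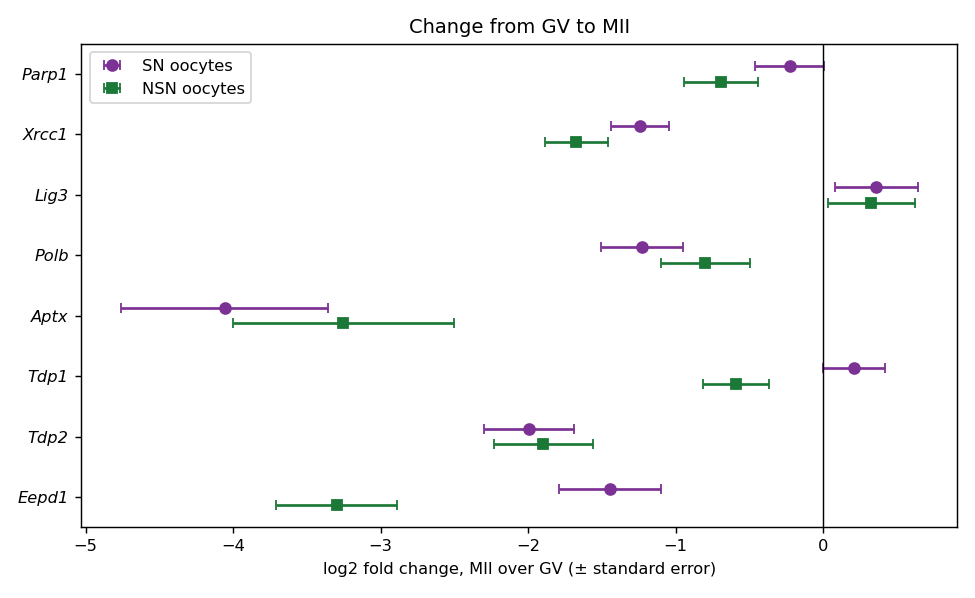
Log2 fold change from GV to MII (x axis, error bars are standard errors) of the 8 genes in SN oocytes (circles) and NSN oocytes (squares). Aptx lies farthest to the left in SN oocytes and Eepd1 and Aptx in NSN oocytes, at −3.30 and −3.25, while Lig3 lies to the right of 0 in both, and Tdp1 is on opposite sides of 0 in SN and NSN oocytes.

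Aptx, which reverses failed ligations, showed the largest fall of the 8 in SN oocytes. It had 76.0, 72.0 and 60.7 CPM in SN GV and 38.5, 93.3 and 77.9 CPM in NSN GV oocytes. In SN-MII oocytes 1.99, 5.52, 8.81 and 0.273 CPM were left, and in NSN-MII oocytes 12.5, 8.04 and 1.01 CPM. The lowest of these, in the fourth SN-MII library, stood on 2 counts, under the floor of 3 taken as detection here, and the highest on 105, and no MII library came near a GV library. Aptx fell by 4.06 on the log2 scale in SN oocytes (SE 0.70, edgeR adjusted p = 0.00013) and had a log2 fold change of −3.25 in NSN oocytes (SE 0.75, edgeR adjusted p = 0.00148), which was −2.77 without the third NSN-MII library and still called. The MII oocytes differed among themselves more than in any other gene of the 8, with an SD of 91.6% of the mean in SN-MII and 80.6% in NSN-MII oocytes. Of all genes tested, 5.45% had a lower log2 fold change in SN oocytes and 9.92% in NSN oocytes.

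Tdp2 fell in both types. It had 27.7, 32.5 and 35.7 CPM in SN GV, 24.9, 30.6 and 29.0 CPM in NSN GV, 10.2, 10.7, 5.52 and 5.59 CPM in SN-MII and 8.81, 8.17 and 5.57 CPM in NSN-MII oocytes. No MII library overlapped a GV library. The log2 fold change was −1.996 in SN oocytes (SE 0.31, edgeR adjusted p = 4.29e-05) and −1.90 in NSN oocytes (SE 0.34, edgeR adjusted p = 0.000173).

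Tdp1, the counterpart of Tdp2 for topoisomerase I, is described without a test between the stages. Its GV libraries had 126.0, 123 and 107 CPM in SN and 98.7, 88.9 and 116 CPM in NSN oocytes. SN-MII oocytes had 111, 124, 134 and 178 CPM and NSN-MII oocytes 58.9, 81.9 and 60.6 CPM. The SN-MII libraries overlapped the SN GV libraries, while the NSN-MII libraries lay under all other libraries. In SN oocytes the log2 fold change was 0.21 (SE 0.21, 95% interval −0.20 to 0.62), a value that turned to −0.10 with scaling by library totals alone. In NSN oocytes the log2 fold change was −0.59 (SE 0.22), and from −0.76 to −0.47 with 1 library left out.

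Eepd1 is likewise described without a test between the stages. It had 62.6, 52.6 and 50.4 CPM in SN GV and 63.2, 65.8 and 61.5 CPM in NSN GV oocytes. SN-MII oocytes had 14.6, 15.3, 17.2 and 33.9 CPM and NSN-MII oocytes 6.07, 10.1 and 2.87 CPM. The groups formed 3 separate levels, with the GV libraries at the top, the SN-MII libraries between and the NSN-MII libraries at the bottom. The log2 fold change was −1.45 in SN oocytes (SE 0.35) and −3.30 in NSN oocytes (SE 0.41), where leaving out 1 library gave from −3.80 to −2.99.

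**Figure D3:**
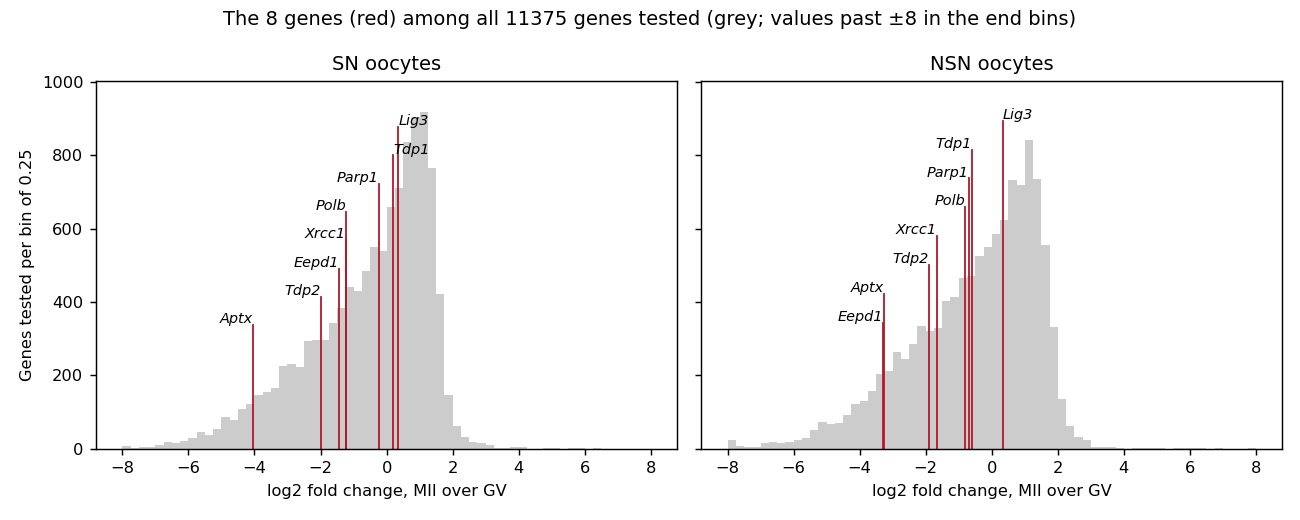
Log2 fold changes from GV to MII (x axis) of all 11375 genes tested as grey histograms (y axis, genes per bin), for SN oocytes on the left and NSN oocytes on the right, with the 8 genes as labelled red lines whose heights carry no value. Lig3 lies to the right of 0 in both panels, and Aptx lies in the lower tail, with 5.45% of all genes below it in SN and 9.92% in NSN oocytes.

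The order of the 8 mRNAs was compared as FPKM, which accounts for length. In SN GV oocytes it ran from Polb (87.8 ± 10.2 FPKM, SD, n = 3) over Xrcc1 (78.5 ± 2.20), Tdp1 (69.4 ± 1.31) and Aptx (48.2 ± 3.45) to Eepd1, Lig3, Tdp2 and Parp1 (19.8, 19.0, 16.6 and 11.4 FPKM). Eepd1 with Lig3 and Lig3 with Tdp2 overlapped in their libraries, and no other neighbours in this order did. In SN-MII oocytes Tdp1 stood first (74.6 ± 11.3 FPKM, SD, n = 4), above Polb (33.8 ± 12.8), Xrcc1 (29.1 ± 8.11), Lig3 (18.7 ± 0.924), Parp1 (8.09 ± 1.91), Eepd1 (6.46 ± 2.57), Tdp2 (3.82 ± 1.35) and Aptx (2.08 ± 1.66). Of the neighbours in this order Polb and Xrcc1, Parp1 and Eepd1, Eepd1 and Tdp2, and Tdp2 and Aptx overlapped, and the others did not.

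In NSN GV oocytes Xrcc1 and Polb (92.5 ± 9.88 and 90.6 ± 19.4 FPKM, SD, n = 3) overlapped at the top, followed by Tdp1 (62.8 ± 10.1) and Aptx (48.6 ± 17.0), which overlapped as well. Eepd1, Lig3, Tdp2 and Parp1 followed at 23.5, 17.2, 15.0 and 13.5 FPKM, each overlapping the next. In NSN-MII oocytes Polb (48.2 ± 12.1 FPKM, SD, n = 3) and Tdp1 (40.1 ± 12.7) overlapped at the top, above Xrcc1, Lig3 and Parp1 (24.8, 16.4 and 8.20 FPKM), which overlapped none of their neighbours. Tdp2 (3.78 ± 1.12), Aptx (3.29 ± 3.45) and Eepd1 (2.20 ± 1.38) overlapped at the bottom. Ranked among 11525 genes with a mean of at least 1 FPKM, Tdp1 was at percentile 83.7 in SN GV and 88.2 in SN-MII oocytes, and Aptx at percentile 78.3 and 25.5. Eepd1 was at percentile 64.9 in NSN GV and 25.2 in NSN-MII oocytes.

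Ratios within a library do not depend on how libraries are scaled, though the FPKM of Lig3 carry the shift in count per FPKM given above. The ratio of Xrcc1 to Lig3 in FPKM was 4.19, 3.58 and 4.82 in SN GV, 4.85, 10.6 and 3.61 in NSN GV, 1.08, 2.09, 1.69 and 1.36 in SN-MII and 1.75, 1.58 and 1.28 in NSN-MII oocytes. Every MII oocyte was under every GV oocyte (mean difference −1.68 on the log2 scale over 6 GV and 7 MII libraries). The ratio of Tdp1 to Tdp2 was 3.28 to 5.10 in the 6 GV libraries, 12.3 to 35.6 in SN-MII and 7.40 to 13.2 in NSN-MII oocytes. It was higher in every MII than in every GV oocyte (mean difference 1.88 on the log2 scale). These 2 ratios were chosen after their values were seen and are a description with no test, and the MII values of Tdp1 entered its selection.

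**Figure D4:**
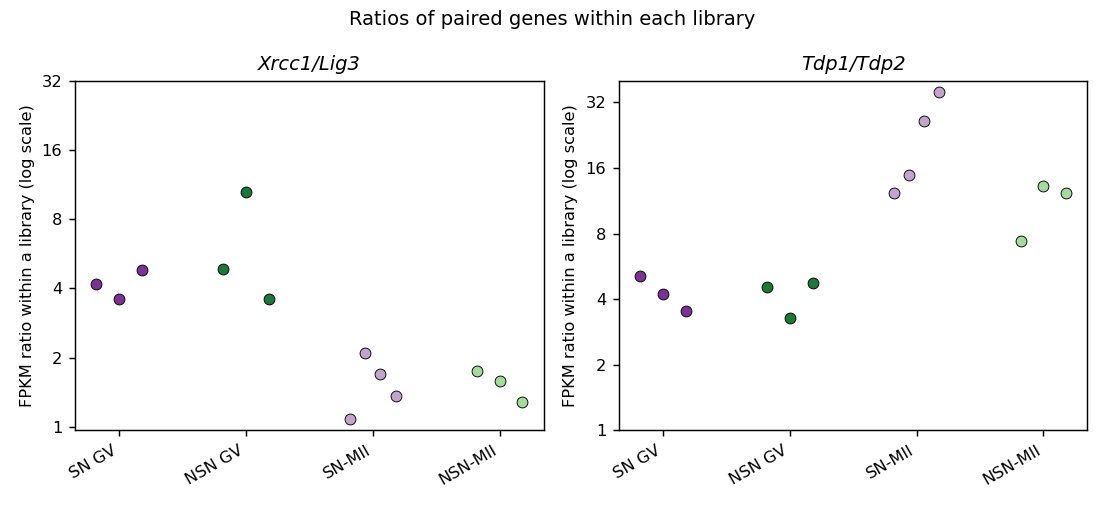
FPKM ratios within each library (y axes, log scale) of Xrcc1 to Lig3 on the left and Tdp1 to Tdp2 on the right, with 1 point per oocyte by group. The MII points lie under the GV points for Xrcc1 to Lig3, at 1.08 to 2.09, and above them for Tdp1 to Tdp2, at 7.40 or more.

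At the GV stage, where the question is whether NSN and SN oocytes carry different stores of these mRNAs, none of the 8 was called (edgeR adjusted p = 1 for each). No gene of the 8 had an unadjusted p under 0.05, and DESeq2's Wald test called none. Of all 10839 genes tested, 0% were called, and the unadjusted p of 1.75% was under 0.05. In each of the 8 genes the groups overlapped, while 3.12% of all genes were without overlap and higher and 2.92% without overlap and lower in NSN oocytes. Parp1 had the largest log2 fold change, 0.39 (SE 0.23, 95% interval −0.06 to 0.85), followed by Xrcc1 (0.23, SE 0.15), Eepd1 (0.22, SE 0.19) and Tdp1 (−0.20, SE 0.18). Aptx and Polb were at 0.00 and 0.04 (SEs 0.28 and 0.22), with 95% intervals from −0.55 to 0.56 and from −0.40 to 0.47.

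At the MII stage the same comparison gave 0 calls among the 6 genes tested, in edgeR and in DESeq2's Wald test, and 0 with an unadjusted p under 0.05. Of 10028 genes tested, 0.259% were called, and the unadjusted p of 9.38% was under 0.05. The widest interval was that of Aptx, with a log2 fold change of 0.81 (SE 0.89, 95% interval −0.94 to 2.55, edgeR adjusted p = 0.857). Leaving out 1 library moved it from 0.15 to 1.48, with 1.31 without the third NSN-MII library, and the replicate block gave 0.23. Polb was at 0.46 (SE 0.29, 95% interval −0.11 to 1.03), with a range of 0.25 to 0.64 when 1 library was left out, and Parp1, Xrcc1, Lig3 and Tdp2 were between −0.24 and −0.08. Lig3, at −0.24, was at −0.49 without the third NSN-MII library (edgeR adjusted p = 0.159). All 6 overlapped between the groups.

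Tdp1 and Eepd1 are described without a test in this comparison, for which the study listed them. Tdp1 had 67.2 ± 12.8 CPM in NSN-MII (SD, n = 3) and 137 ± 29.0 CPM in SN-MII oocytes (SD, n = 4), so that the log2 fold change was −1.03 (SE 0.21). Eepd1 had 6.36 ± 3.65 CPM in NSN-MII (SD, n = 3) and 20.3 ± 9.19 CPM in SN-MII oocytes (SD, n = 4), so that the log2 fold change was −1.65 (SE 0.46). Neither overlapped between the groups, as was so for 5.57% of all genes tested toward lower and 4.63% toward higher values. Leaving out each library in turn gave from −1.21 to −0.88 for Tdp1 and from −2.16 to −1.29 for Eepd1, the upper ends being reached without the fourth SN-MII library, which held the highest value of both genes. Without the third NSN-MII library they were −0.95 and −1.31.

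**Figure D5:**
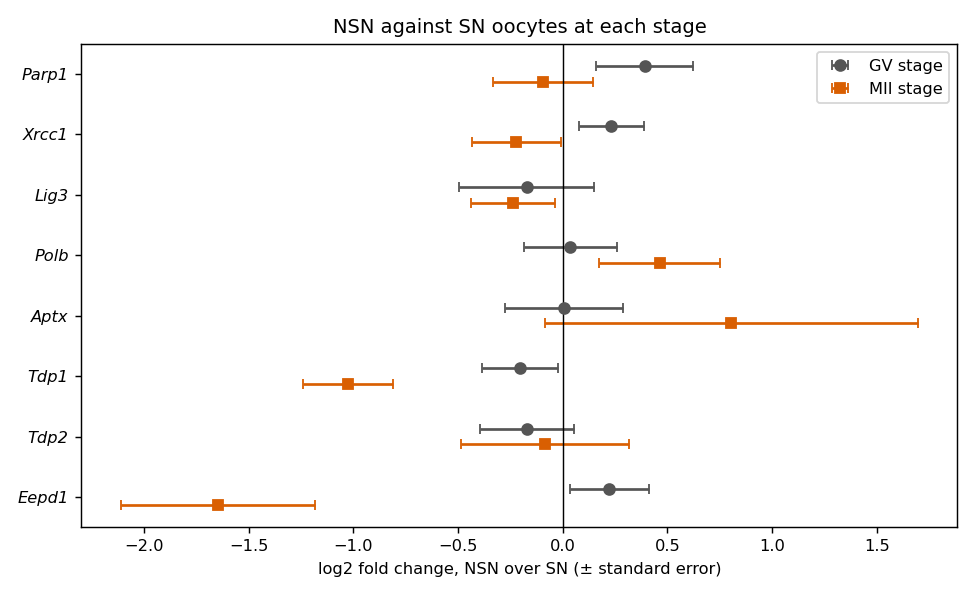
Log2 fold change of NSN over SN oocytes (x axis, error bars are standard errors) of the 8 genes at the GV stage (grey circles) and the MII stage (orange squares). Tdp1 and Eepd1 stand apart on the left at MII, at −1.03 and −1.65, where they were listed by the study, and at GV all 8 lie between −0.20 and 0.39.

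Whether the difference between NSN and SN oocytes itself changed from GV to MII was tested as an interaction. Of 11375 genes tested 0.0176% were called, and the unadjusted p of 5.33% was under 0.05. Of the 6 genes tested 0 were called by edgeR, with 0 at an unadjusted p under 0.05 and 0 by DESeq2's Wald test. Their values ran from −0.46 for Parp1 (SE 0.34) to 0.81 for Aptx (SE 0.97). Those of Tdp1 and Eepd1, given as a description, were −0.80 (SE 0.31) and −1.85 (SE 0.52). For Parp1, called between stages in NSN oocytes alone, a difference between the types was thus not shown.

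Around these 8 genes, 54 symbols of neighbouring repair steps were followed (Adprhl2 and Adprs being names of 1 gene), of which 49 were tested between stages. In SN oocytes 17 rose, 21 fell and 11 were not called, and in NSN oocytes 13 rose, 23 fell and 13 were not called, with medians of 0.21 and 0.05 on the log2 scale. None was called by edgeR between NSN and SN oocytes at GV (48 tested) or at MII (45 tested), or in the interaction (49 tested). DESeq2's Wald test called none either, and 0, 3 and 1 of them had an unadjusted p below 0.05 in edgeR. The share of all genes below 0.05 was 1.75%, 9.38% and 5.33%.

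Among genes of long patch repair, which extends a gap past the first base, 12 were tested, and 8 fell and 3 rose in SN oocytes while 9 fell and 3 rose in NSN oocytes. Rfc2, a subunit of the clamp loader, fell from 57.2 to 2.56 CPM (group means) in SN and from 64.3 to 5.86 CPM in NSN oocytes. Of its partner subunits, Rfc1 and Rfc5 rose, by 1.11 and 0.87 on the log2 scale in SN and by 1.16 and 1.11 in NSN oocytes. Rfc3 and Rfc4 fell, with log2 fold changes of −2.12 and −3.34 in SN and −1.92 and −2.11 in NSN oocytes. Pold4, a small subunit of DNA polymerase delta, fell by 3.10 on the log2 scale in SN oocytes. Its group mean there went from 2.37 to 0.261 CPM, under the 0.409 CPM that a floor of 3 counts per library gives. In NSN oocytes, where each MII library held less than 1 count, it was at least 6.76-fold lower against the same floor.

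Of 8 end-processing genes 4 fell in each type, and 2 rose in SN and 1 in NSN oocytes. Fen1, the flap endonuclease, fell from 97.4 to 1.65 CPM in SN and from 103 to 2.15 CPM in NSN oocytes (group means), a log2 fold change of −5.87 and −5.58. Dclre1a, a nuclease of crosslink repair, rose by 1.14 on the log2 scale in SN and 1.24 in NSN oocytes.

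Of 4 ADP-ribosylation genes tested, Hpf1, the cofactor that directs PARP1 to serine, rose by 1.14 on the log2 scale in SN and 1.61 in NSN oocytes. Parp2, the closest relative of Parp1, fell, with log2 fold changes of −2.69 and −2.40, as did Adprhl2, which removes ADP-ribose from serine (−2.56 and −2.26). Parg, which takes the chains apart, was not called (0.80 and 0.83).

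Of 10 DNA glycosylases tested 5 rose and 2 fell in SN oocytes, and 3 rose and 3 fell in NSN oocytes. Smug1, which removes uracil, rose by 1.40 and 1.26 on the log2 scale and Mbd4 by 0.85 and 0.96, while Neil2 (−4.79 and −3.73) and Nthl1 (−1.33 and −1.08), which remove oxidized bases, fell. Of 5 topoisomerases tested, 3 rose and 1 fell in SN and 2 rose and 1 fell in NSN oocytes. Top1, whose trapped form is the substrate of TDP1, rose by 1.199 and 1.21, Top2a, a source of TDP2 substrates, rose by 0.66 (not called by DESeq2, adjusted p = 0.0572) and 1.22, and Top3b fell (−2.24 and −2.50). Of 10 genes of non-homologous end joining 3 rose and 4 fell in each type, the rises including Lig4, the ligase of that pathway (1.32 and 0.999), and the nuclease Dclre1c (1.08 and 1.90), and the falls Xrcc6, the Ku70 subunit (−4.47 and −3.62), and the polymerase Poll (−3.60 and −4.54).

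The genes whose log2(FPKM + 1) followed each mRNA most closely over the 13 libraries were taken from 9861 genes, as a description over points that share stages and depths. For Tdp1 they were Gtse1 and Samd1 (Pearson's r = 0.92 and 0.90), and for Lig3 Med23 and Fbxo30 (0.90 and 0.88), the lowest values of the 8. For Eepd1 they were Mum1 and Tsnax (0.99 and 0.99), for Aptx Naxe and Gins1 (0.99 and 0.99) and for Tdp2 Znhit1 and Nfkbie (0.996 and 0.992). Xrcc1 was closest to Xab2 and Nat9 (0.99 and 0.99), Polb to Tpgs2 and Ubl7 (0.97 and 0.97) and Parp1 to Galnt17 and Glmp (0.97 and 0.93). By rank, Spearman's rho was 0.68 and 0.73 for Gtse1 and Samd1 and 0.81 and 0.61 for Med23 and Fbxo30. For the other genes named it was 0.90 to 0.97. Among the 8 themselves r was highest for Tdp2 with Aptx (0.96) and Xrcc1 with Tdp2 (0.94), and lowest for Lig3 with Polb (−0.27).

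On GRCm38 the genes lie on chromosome 1 (Parp1, chr1:180568924-180601254, plus strand), 7 (Xrcc1, chr7:24546289-24573440, plus), 11 (Lig3, chr11:82781108-82804274, plus), 8 (Polb, chr8:22628126-22653435, minus), 4 (Aptx, chr4:40682382-40703194, minus), 12 (Tdp1, chr12:99884517-99955219, plus), 13 (Tdp2, chr13:24831679-24842153, plus) and 9 (Eepd1, chr9:25481547-25604110, plus). Apart from Lig3 with Rffl, the exonic overlap with another gene was 45 bases for Polb with the non-coding Gm26909, 7 bases for Parp1 with a microRNA gene, and 0 for the others.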

How the data were processed

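Reads of 13 single-oocyte SMART-seq2 libraries had been trimmed (Trim Galore 0.4.4), mapped to mm10 (Bowtie2 2.3.5) and quantified per gene (RSEM 1.2.28), per the labels and the methods of the study. The expected counts, deposited by the authors in 1 table per stage, were not normalized and share out reads that map to several genes. The FPKM values deposited by the authors scale them by gene length and library size.

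Counts were rounded, filtered with filterByExpr, scaled by TMM and tested in edgeR 4.0.16 (R 4.3.3), by type within each stage and, over all 13 libraries, by stage within each type and for the interaction. The common biological coefficient of variation was 0.352 at GV, 0.344 at MII and 0.364 over all libraries. Standard errors are the log2 fold change divided by the root of F, and 95% intervals are 1.96 of them on either side. These intervals take the normal distribution and not that of the F test, and are therefore too narrow with so few libraries. Intervals and floors cover no amplification error, since no molecular identifiers are named. The fits were tested on simulated data in which 200 genes above a set mean count were changed by 2 on the log2 scale. Of these, 175 were called at GV, 191 at MII, 189 between stages in SN and 177 in NSN oocytes. The interaction test called only 91 of the 200, so its 0 calls among the genes here do not exclude changes of that size.

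DESeq2 1.42.0, limma 3.58.1 on log2(FPKM + 1) or log2(FPKM + 0.1), other scalings, filters, the replicate number and leaving out libraries were alternatives. The genes and lists were chosen with earlier results of these data known. Genes named from the lists were those called between types or in the interaction, and the 2 largest rises and falls per list called alike in both types. A gene of this rule is not reported here. The same rule took the 2 genes most correlated with each of the 8. Ratios within libraries and counts per FPKM were added after the data were seen. Symbols and coordinates are from GENCODE M21. All sample columns were used (0 unused), and no library was a copy of another.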

Additional observations from a re-analysis of the deposited data

Results flagged for a closer look

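Of the 8 genes, Eepd1 had 1 value far from the rest of its group. The fourth SN-MII library had 33.9 CPM, against 14.6 to 17.2 CPM in the other 3, a gap of 0.864 of the group's range. The SN-MII libraries of all 8 genes were examined by this measure. The SN-MII values of Eepd1 entered its selection, so the gap is a description with no test. The difference between NSN-MII and SN-MII oocytes in Eepd1 was −1.29 on the log2 scale without the fourth SN-MII library.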

How the results depend on the processing

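The calls of Xrcc1, Polb, Aptx and Tdp2 from GV to MII in SN oocytes held under each alternative run. So did the 0 calls at GV, at MII and in the interaction. Of the 6 genes tested in NSN oocytes 5 were called, and Xrcc1, Aptx and Tdp2 stayed called in each alternative run. Values under the threshold were also counted over all 8 genes, with Tdp1 and Eepd1. The MII values of these 2 entered their selection, so this count is a description and no support for them. In NSN oocytes it was 7, and 4 with the 2 compared groups fitted alone, the lowest of the other settings. With 1 library left out it lay between 4 and 7, and was lowest without NSN-MII library 3. Without NSN GV library 3 it was 5, and of the genes tested Xrcc1, Aptx and Tdp2 were lower and Lig3 higher. The replicate number as a block gave a count of 5 in SN and 6 in NSN oocytes. With this block Parp1 was lost in NSN oocytes (edgeR adjusted p = 0.0526), and the other comparisons had 0 calls. Pairing by number was not evident: 0 of 6 GV and 2 of 6 MII libraries correlated best with their own number. Same-numbered libraries had r from −0.46 to 0.097 within a stage and from −0.037 to 0.20 between stages of a type. Whether the numbers pair the libraries cannot be told from so few.

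Scaling by library totals lowered the median of all genes between stages from −0.08 to −0.37 in SN and from −0.12 to −0.40 in NSN oocytes, and the share of calls that were rises from 44.6% to 33.4% and from 45.2% to 35.6%. Of 768 values of single genes under alternatives 35 changed sign, none of them called. Tdp1 in SN oocytes turned to −0.099 with library totals. With limma on log2(FPKM + 1), with and without a filter on low values, Lig3 in SN oocytes turned to −0.0099, Lig3 in the interaction to 0.013, Tdp2 at MII to 0.0037 and Aptx at GV to −0.053. On log2(FPKM + 0.1) these were −0.010, 0.018, 0.0085 and −0.055. Aptx at GV also turned to −0.0030 with no count filter and to −0.058 with the replicate block, which turned the interactions of Lig3 and Tdp2 to 0.024 and −0.021. DESeq2's size factors turned that of Lig3 to 0.0020. With 1 library left out the ranges were −0.52 to 0.12 for Lig3, −0.23 to 0.27 for Aptx and −0.17 to 0.20 for Polb at GV, −0.21 to 0.057 for Parp1 and −0.23 to 0.095 for Tdp2 at MII, and −0.32 to 0.36 for Lig3 and −0.054 to 0.27 for Tdp2 in the interaction. The cause of these changes was not tested.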
